A study of Rattus norvegicus with 6 samples.

Results

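Fibrinogen is the plasma protein that thrombin converts to fibrin, and it is built from the alpha, beta and gamma chains encoded by Fga, Fgb and Fgg. The members described here are these 3 chain genes, taken as every probe that is not a control and whose accession belongs to 1 of them. They are 3 of the 15645 genes that could be named on the array, and 5 of its 61453 analysed probes: 1 for Fga, 2 for Fgb and 2 for Fgg. The RNA came from kidney cortex. The animals were male Sprague-Dawley (Crl:CD(SD)) rats, bought at 5 weeks of age and kept on a basal diet. The control group, 3 rats, was given corn oil for 4 weeks. The other group, 3 rats, received 1,2-dibromoethane, a brominated hydrocarbon once used as a fumigant, at 75 mg/kg/day over the same 4 weeks. Strain, sex and diet were the same in both groups, and each rat gave 1 single-colour array of total RNA.

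The hepatocyte is the main source of fibrinogen. The genes of the chains lie side by side in the genome and are transcribed together, the chains are joined by disulfide bonds in the endoplasmic reticulum, and interleukin 6 (IL-6) raises their transcription during the acute phase response through STAT3, with C/EBP factors acting at the promoters. Tubular epithelium can also transcribe fibrinogen genes, and fibrinogen chains are known as markers of kidney injury in rats and people. Because the RNA came from whole tissue, a change in the number of cells of a type and a change in RNA per cell cannot be told apart.

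The promoters of the 3 genes are shown because the chains are known to be regulated together. Each sequence is the 250 bases before the transcription start, 5′ to 3′ on the strand of the gene, from RefSeq in the build GRCr8, and entries were found for all 3. The capitals mark the letters CTGGGA on either strand, the core of the element through which IL-6 acts on fibrinogen genes. The first lies at chr2:170671919-170672168 on the plus strand, the second at chr2:170700876-170701125 on the minus strand and the third at chr2:170652833-170653082 on the plus strand.
Fga: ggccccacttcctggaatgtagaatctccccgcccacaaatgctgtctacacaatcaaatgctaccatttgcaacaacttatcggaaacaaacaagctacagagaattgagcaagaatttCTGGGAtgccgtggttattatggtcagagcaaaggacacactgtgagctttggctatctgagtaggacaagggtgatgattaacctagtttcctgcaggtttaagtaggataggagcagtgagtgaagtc
Fgb: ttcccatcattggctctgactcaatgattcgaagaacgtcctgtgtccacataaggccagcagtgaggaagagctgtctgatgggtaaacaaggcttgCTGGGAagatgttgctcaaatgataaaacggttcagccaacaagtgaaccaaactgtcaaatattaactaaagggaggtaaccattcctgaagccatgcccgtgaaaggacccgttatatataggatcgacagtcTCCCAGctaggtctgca
Fgg: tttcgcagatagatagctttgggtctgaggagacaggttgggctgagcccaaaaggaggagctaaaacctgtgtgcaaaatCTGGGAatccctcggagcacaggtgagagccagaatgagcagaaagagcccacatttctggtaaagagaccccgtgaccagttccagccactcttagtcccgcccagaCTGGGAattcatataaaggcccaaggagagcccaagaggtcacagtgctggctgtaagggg

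The core was present in all 3 windows, once in that of Fga, at -130, and 2 times in those of Fgb, at -152 and, on the opposite strand, at -17, and of Fgg, at -169 and -61 (first base of the match counted from the start site). Of 27457 promoter windows of the same length, 25.8% held this core at least once and 4.18% at least 2 times. The C/EBP core TTGCNNAA, with N for any base, was found in the windows of Fga (-144, on the opposite strand) and Fgb (-141), and in 9.23% of all windows. The letters TATAAA stood in the window of Fgg alone among the chains, at -50, and in 13.1% of all windows. All searches covered both strands, and no 2 of the matches listed overlap. A match in so short a motif is a description of the letters.

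Levels are given as log2 of the processed signal minus the 75th percentile of the array, so that 0 is the level of a probe brighter than 75% of all probes. Signals of different probes depend on the probe as well as on the transcript, and no gene's level is set against another gene's; probes of 1 gene, and sums over a list, are compared only for how they vary from array to array. Between 59.2% and 67.8% of the probes were well above background on each array and 0 spots were saturated. Pearson's r between arrays, taken across genes that are no replicates of each other, was 0.989 to 0.993 within groups and 0.988 to 0.992 between them. The 5 defining markers of the cortex, Slc34a1, Slc5a2, Lrp2, Cubn and Slc22a6, were well above background on all arrays. There were 3 slides. On slide 1 were dibromoethane replicate 2 and the controls numbered 1 and 2; on slide 2 were dibromoethane replicate 1 and the control numbered 3; dibromoethane replicate 3 was on slide 3 by itself. Slide 2 was scanned on another day than slides 1 and 3.

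All 3 chains had higher mean levels in the dibromoethane group, by 1.47-fold for Fga, 2.11-fold for Fgb and 5.72-fold for Fgg, and none of these differences passed the test over all features. The value of Fgg includes 1 control array on which it was not well above background; with that level set at the detection floor of the array its log2 difference was 2.14 in place of 2.52. Dibromoethane replicate 1 had the highest level and control replicate 1 the lowest with every one of the 5 probes. The question the comparison answers is whether transcripts of the cortex differed between rats given dibromoethane and rats given corn oil. Of 28961 features tested with limma, 9 (0.0311%) passed an adjusted p of 0.05, and of the 3 chains 0 passed.

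Fga encodes the alpha chain, which carries fibrinopeptide A, the first piece that thrombin cuts off. Its level was 0.11, 0.62 and 0.63 in control replicates 1 to 3 and 1.36, 1.06 and 0.60 in dibromoethane replicates 1 to 3. The groups overlapped, since dibromoethane replicate 3 lay just below control replicates 2 and 3. The means were 0.45 ± 0.30 (SD, n = 3) in controls and 1.01 ± 0.38 (SD, n = 3) in treated rats. The log2 difference was 0.56 (SE 0.24, 95% interval -0.02 to 1.13; limma adjusted p = 0.458).

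Fgb encodes the beta chain, whose synthesis is held to limit assembly of the whole molecule in hepatocytes. Its brighter probe, A_43_P10037, stood at -0.60, 0.24 and 0.55 in the controls and at 1.98, 1.12 and 0.33 in the treated rats, in the order of the replicate numbers. Treated replicates 1 and 2 exceeded all controls, while replicate 3 lay below control replicate 3. The means were 0.06 ± 0.60 (SD, n = 3) and 1.14 ± 0.82 (SD, n = 3), a log2 difference of 1.08 (SE 0.48, 95% interval -0.10 to 2.26; limma adjusted p = 0.470). The other Fgb probe, A_44_P1044835, had -1.38, -0.78 and -0.43 in controls and 1.03, 0.22 and -0.67 in treated rats, again with treated replicate 3 among the controls. With it the difference was 1.06 (SE 0.46), and the gap between both probes was nearly constant, at 0.78 to 1.02 over the 6 arrays.

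Fgg encodes the gamma chain, which holds binding sites for platelet and leukocyte integrins and is cross-linked by factor XIII. Its brighter probe, A_43_P11464, stood at -6.24, -3.48 and -3.68 in the controls and at -0.63, -2.68 and -2.54 in the treated rats. All treated arrays lay above all controls. In control replicate 1 the probe was not well above background, so that its level there is only a bound; it was well above background on the other 5 arrays. As a share of the array's 75th percentile these signals ran from 1.33% to 8.94% in controls and from 15.6% to 64.8% in treated rats.

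The mean of Fgg was -4.46 ± 1.54 (SD, n = 3) in controls and -1.95 ± 1.15 (SD, n = 3) in treated rats, a log2 difference of 2.52 (SE 0.90, 95% interval 0.31 to 4.72). The interval lies above 0, but over all features the difference did not pass (limma adjusted p = 0.405). The second Fgg probe, A_44_P558641, read -6.04, -3.37 and -3.87 in controls and -1.15, -2.71 and -3.17 in treated rats, and it too was not well above background in control replicate 1. The treated arrays were again all higher, and the difference was 2.08 (SE 0.83; limma adjusted p = 0.435 among 37274 probes). On the 5 arrays where both probes were well above background the gap between them ran from -0.11 to 0.64.

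**Figure D1:**
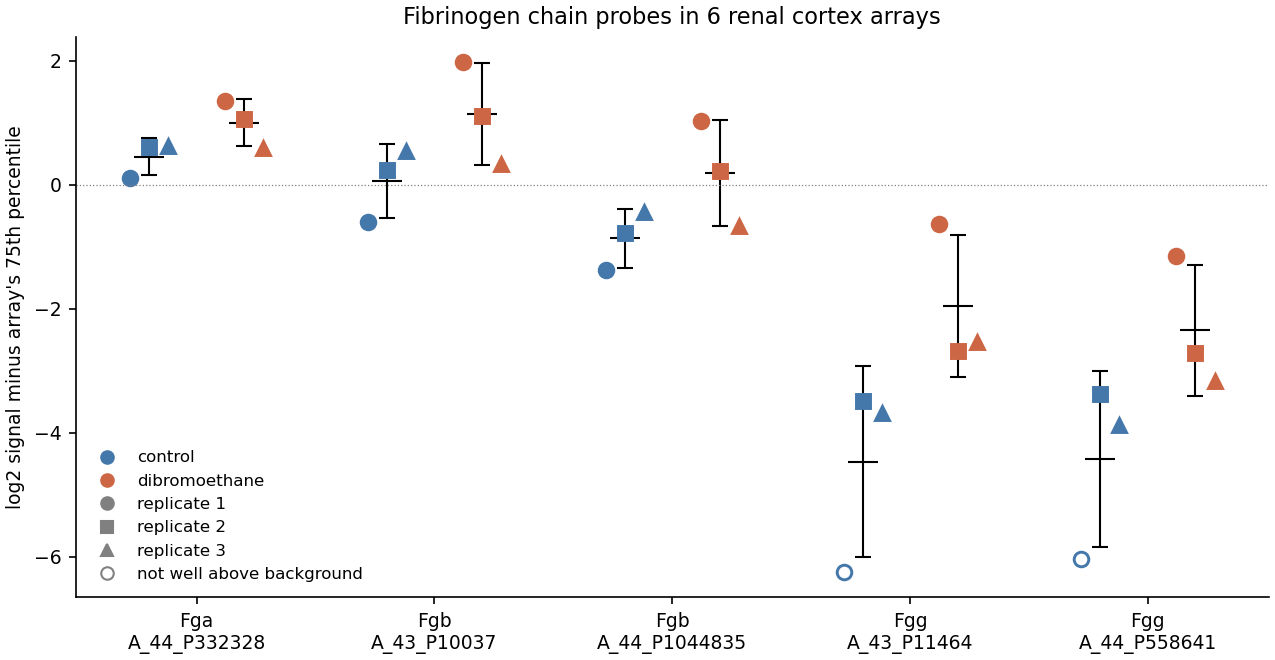
Level of each of the 5 fibrinogen probes (log2 signal minus the 75th percentile of the array) on the 6 arrays, with the mean and SD of each group of 3 as bars; open symbols were not well above background. Dibromoethane replicate 1 was highest and control replicate 1 lowest with every probe, and the groups were apart for both Fgg probes (treated -2.68 or above, controls -3.48 or below with the brighter probe).

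Set beside all tested features, 3 of 3 chains had a positive difference where 46.4% of features did, and the median difference over all features was -0.02. In 1 of 3 chains, Fgg, every treated array exceeded every control array, as in 7.38% of features. The mean was at least 2-fold higher for 2 of 3, as for 0.784% of features, and 1 of 3 had an unadjusted p under 0.05 with the treated group higher, as did 4.53%. Fgg was tested only because it was well above background on all treated arrays, the group in which it was high, and the genes were chosen with results of these data known, so that these shares describe them and support nothing.

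The size of each difference rested in part on single arrays, and no chain passed in any of the fits that left 1 out. Without control replicate 1 the difference was 0.38 for Fga, 0.75 for Fgb and 1.63 for Fgg. Without dibromoethane replicate 1 it was 0.38, 0.66 and 1.86. For Fga, Fgb and Fgg respectively it was 0.76, 1.49 and 2.81 without dibromoethane replicate 3. With the Fgg level of control replicate 1 raised to the lowest level at which any probe of that array was well above background, -5.12, the difference was 2.14 (SE 0.69; limma adjusted p = 0.376). With normexp background correction, whose offset of 50 compresses dim signals, Fgg gave 1.30 (SE 0.46) while Fga gave 0.53 and Fgb 1.04.

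Within slides the treated array exceeded the controls for each chain. On slide 1 the difference was 0.69 for Fga, 1.30 for Fgb and 2.18 for Fgg. On slide 2, which held 1 array of each group, it was 0.74, 1.43 and 3.05. A fit with slide as a block, in which slide 3 adds nothing to the comparison, gave 0.71 (SE 0.18), 1.36 (SE 0.29) and 2.55 (SE 0.94), with limma adjusted p-values of 0.383, 0.383 and 0.415. The array on slide 3, dibromoethane replicate 3, stood 0.15, 0.27 and 1.93 above the mean of the 3 controls, and its place apart from the other slides cannot be told apart from the animal itself.

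**Figure D2:**
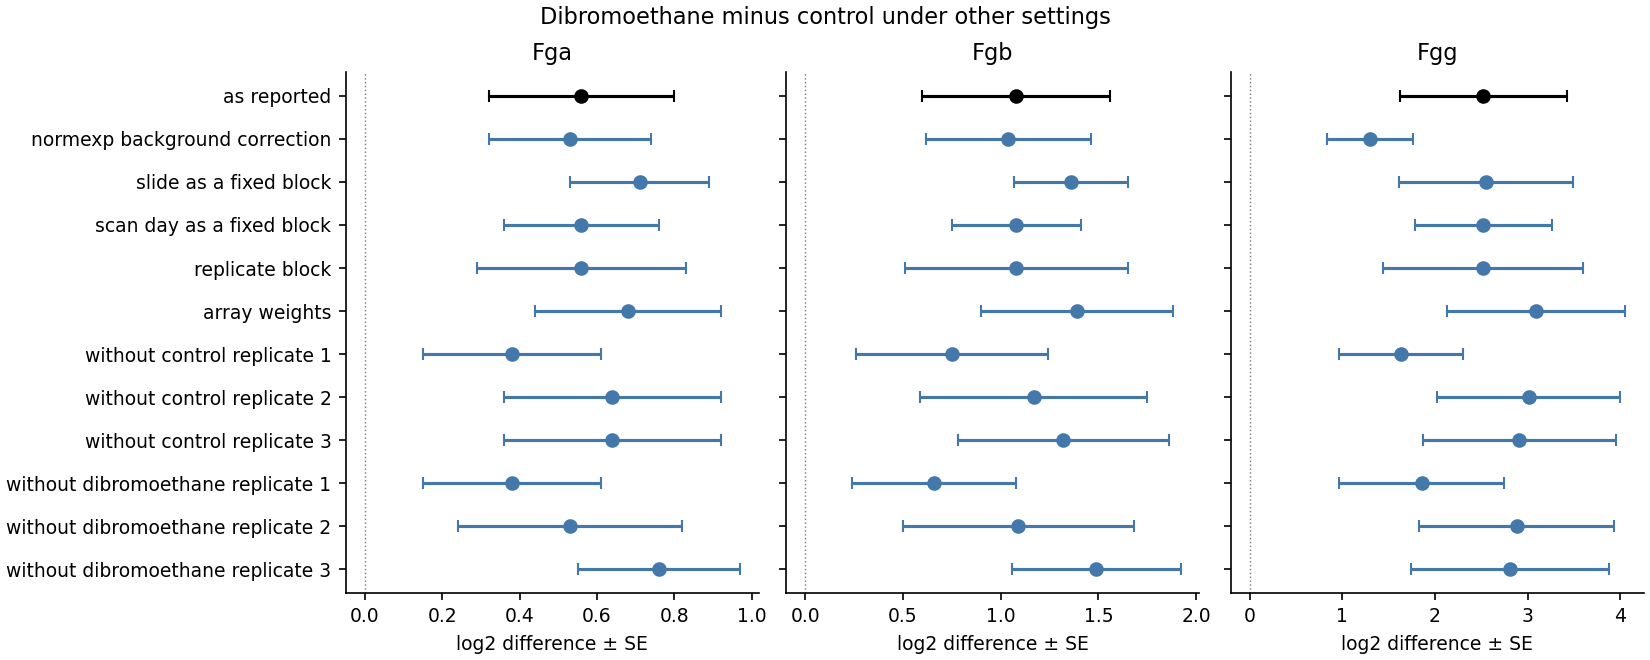
Log2 difference between the dibromoethane and control groups for each chain (point, with its SE as bar) as reported and under 11 other settings. All values were above 0; those of Fgg ranged from 1.30 with normexp to 3.09 with array weights.

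The chains shared their highest and lowest arrays, but not the order of the arrays between. Dibromoethane replicate 3 was at 0.60 for Fga, below control replicates 2 and 3. For Fgg it was at -2.54, above all controls and dibromoethane replicate 2. Whether their responses differed in size could not be decided, because the test used could not pass with so few arrays. Over the 6 arrays Pearson's r was 0.990 between Fga and the brighter probe of Fgb, 0.929 between Fga and Fgg and 0.924 between Fgb and Fgg, values which share the same 6 RNA samples and include the group difference. In the 3 pairs of chains compared, the log2 response of Fgg minus that of Fga was 1.96 (exact permutation p = 0.10, two-sided, n = 3 and 3) and minus that of Fgb 1.44 (exact permutation p = 0.20, n = 3 and 3). For Fga minus Fgb it was -0.52 (exact permutation p = 0.20, n = 3 and 3). After Benjamini-Hochberg adjustment over the 3 pairs each p was 0.20, and 0.10 is the smallest p that 3 arrays against 3 can give. That smallest p, which Fgg minus Fga reached, lies above the threshold, so no pair could have passed whatever its difference. With normexp the response of Fgg minus that of Fga was 0.77 and minus that of Fgb 0.26, and without control replicate 1 it was 1.25 and 0.88.

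The neighbours of the cluster, taken as the 3 nearest named protein-coding genes on each side in GRCr8, gave 2 tested genes. Plrg1, a spliceosome component next to Fgb, had a difference of 0.10 (SE 0.09), and Sfrp2, a secreted Wnt modulator, one of -0.15 (SE 0.10), both with overlapping groups. Lrat, Rbm46 and Npy2r did not reach the filter, and Dchs2 had no matched probe.

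Regulators of fibrinogen transcription had differences in both directions. Of 23 listed genes of IL-6 signalling and liver transcription factors 19 were tested with limma, and 0 passed in either direction. At an unadjusted p under 0.05 (limma) 2 were positive and 1 negative, against 4.53% and 6.62% of all features. Differences were positive in 12 and negative in 7, with a median of 0.03. Stat3, the factor that IL-6 activates, had a difference of 0.11 (SE 0.12) and Socs3, its feedback inhibitor and a common readout of the pathway, one of 0.00 (SE 0.26). Il6 itself was not well above background on any of the 6 arrays.

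Among the C/EBP factors Cebpb stood at 2.45 ± 0.44 (SD, n = 3) in controls and 1.68 ± 0.14 (SD, n = 3) in treated rats, with no overlap (log2 difference -0.77, SE 0.23; limma adjusted p = 0.359). Cebpd gave -0.68 (SE 0.30) and Cebpa 0.09 (SE 0.13), both with overlapping groups. Hnf4a, which drives liver and proximal tubule genes, gave -0.10 (SE 0.18). The smallest p of the list belonged to Bcl3, an I-kappa-B family protein and STAT3 target, at 0.33 (SE 0.09; limma adjusted p = 0.347). None of these differences passed the test.

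Genes for the assembly and export of the chains were nearly level between the groups. All 14 were tested with limma, 0 passed, and 1 was higher at an unadjusted p under 0.05, as were 4.53% of all features. The differences ran from -0.07 to 0.19 with a median of 0.07. The largest belonged to Calr (0.19, SE 0.08), the chaperone calreticulin, and Pdia4 (0.19, SE 0.12), a protein disulfide isomerase.

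Of 23 coagulation factors and inhibitors 13 were tested with limma, and 0 passed. Higher at an unadjusted p under 0.05 (limma) was 1 gene, against 4.53% of all features. There were 9 positive and 4 negative values, with a median of 0.13. F2, prothrombin, which yields the enzyme that cleaves fibrinogen, gave 0.44 (SE 0.47). F3, tissue factor, gave 0.22 (SE 0.10) and F8, factor VIII, 0.24 (SE 0.09). In these 2 of the 13 every treated array was higher, as in 7.38% of all features. Thbd, the thrombin receptor thrombomodulin of endothelium, gave -0.10 (SE 0.08).

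The fibrinolysis list, with 14 of 16 genes tested, had 7 positive and 7 negative values, a median of 0.00 and 0 genes that passed. An unadjusted p under 0.05 (limma) was held by 2 positive and 1 negative, and by 4.53% and 6.62% of all features. Plg, plasminogen, the precursor of the enzyme that dissolves fibrin, gave 0.46 (SE 0.19). Its activators Plat and Plau gave 0.02 (SE 0.09) and 0.09 (SE 0.14). Mmp2, a matrix metalloproteinase, had the smallest p of the list (0.79, SE 0.23; limma adjusted p = 0.359), and S100a10, a plasminogen receptor subunit, gave -0.23 (SE 0.09).

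Receptors for fibrinogen and fibrin, with 9 of 16 genes tested, had a median of 0.19, and 0 passed. With the treated group higher, 1 had an unadjusted p under 0.05 (limma), as did 4.53% of all features. Itga5, an integrin subunit, gave 0.37 (SE 0.11) without overlap. Itgam, the integrin subunit through which leukocytes bind the gamma chain, gave 0.73 (SE 0.35), but it was well above background on only 1 control array against all 3 treated ones, so that the other 2 control levels are bounds and it was tested only through the treated group. Within slide 2 only 2 of the 9 values were positive, with a median of -0.12, against 9 of 9 and a median of 0.30 within slide 1.

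The genes whose array pattern was most like that of Fgg included albumin and transthyretin. Candidates were the 466 named genes that were well above background on all 6 arrays and had an SD over the arrays of at least 0.5. The 8 with the highest Pearson's r over 6 arrays were Mug1 (0.991) and Mug1l1 (0.981), murinoglobulins, the plasma carriers Ttr (0.983) and Alb (0.982), the apolipoprotein Apoc1 (0.980), the methionine adenosyltransferase of liver Mat1a (0.977), the serum amyloid Saa4 (0.976) and vitronectin, Vtn (0.974). Of these 8, Ttr, Alb, Apoc1 and Vtn also stand in the liver list, as do 14 of the 466 candidates, and Saa4 stands in the acute phase list. The points share the 6 RNA samples and include control replicate 1, where the level of Fgg is a bound.

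Alb, albumin, shows the pattern. Its level was -1.17, 1.94 and 1.50 in the controls and 3.81, 2.10 and 1.93 in treated rats, a log2 difference of 1.86 (SE 0.93; limma adjusted p = 0.504). As for Fgg, control replicate 1 was lowest and treated replicate 1 highest. Ttr, transthyretin, stood at -2.42, 1.02 and 0.34 against 3.83, 2.51 and 1.83, a difference of 3.08 (SE 0.98; limma adjusted p = 0.374) without overlap. Mug1 gave 2.10 (SE 0.82), also without overlap. Alb, Ttr and Mug1 rank among the 8 genes most like Fgg over these same arrays. Their array order and group difference therefore follow in part from that ranking.

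Most tested liver genes had positive differences, and none passed. Of 41 genes of liver plasma proteins and hepatocytes 39 were on the array and 29 tested; 0 passed, 10 positive and 1 negative had an unadjusted p under 0.05 (limma), 25 had positive and 4 negative values, and the median was 0.60. The groups were apart with the treated arrays higher in 8 of the 29 (7.38% of all features), and 10 were at least 2-fold higher (0.784% of all features). Of all features 46.4% had a positive difference. At an unadjusted p under 0.05 (limma) 4.53% of all features were higher and 6.62% lower. Apoa2, Serpina1 and Gys2, among the 10 at least 2-fold higher, were tested only through the treated group, in which they were high. The negative values were those of Asgr2 (-0.64, SE 0.31) and Asgr1 (-0.47, SE 0.19), the subunits of the asialoglycoprotein receptor of hepatocytes, Apob (-0.50, SE 0.28), an apolipoprotein, and Cyp2c11 (-0.10, SE 1.11), a cytochrome P450. The summed level of the 39 genes, to which bright genes such as Tf add most, is in units of the 75th percentile of the array. It was 33.7, 49.4 and 49.1 in control replicates 1 to 3 and 101, 60.6 and 48.5 in dibromoethane replicates 1 to 3. Control replicate 1 was lowest and treated replicate 1 highest in this sum, while treated replicate 3 lay between control values. On each control array 26 to 30 of the 39 genes were well above background, and on each treated array 30 to 34.

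Of the 8 defining liver markers, Alb, Apoa1, Apoh, Ahsg, Cyp2c11 and Slc10a1 were well above background on all 6 arrays. Serpina1, alpha-1-antitrypsin, was so on 5, and Cps1, a urea cycle enzyme of hepatocytes, on 0. Apoa1, the main protein of high density lipoprotein, gave 1.60 (SE 0.55) and Serpina1 2.09 (SE 0.94), with 1 control level a bound. Ahsg, fetuin A, gave 0.59 (SE 0.32), and Apoh, beta-2-glycoprotein I, 0.22 (SE 0.50). Slc10a1, the hepatocyte bile acid carrier, gave 0.70 (SE 0.18; limma adjusted p = 0.338), without overlap between the groups. Over all 29 tested liver genes the median was 0.56 within slide 1 and 1.08 within slide 2, and the array on slide 3 had a median of 0.20 above the control mean. The group median was 0.51 without control replicate 1 and 0.41 without dibromoethane replicate 1. The part of these markers in the difference of the chains was not tested.

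**Figure D3:**
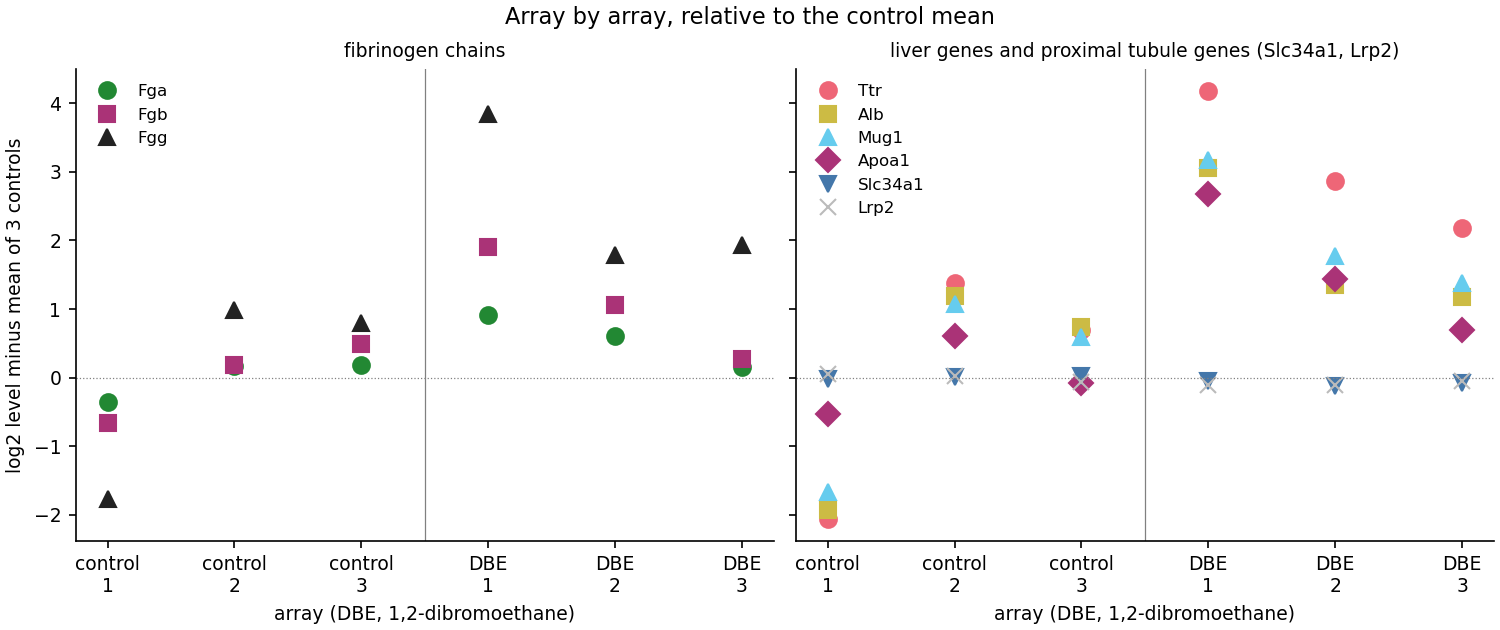
Log2 level on each array minus the mean of the 3 controls, for the chains (left) and for 4 liver genes with the proximal tubule genes Slc34a1 and Lrp2 (right). Dibromoethane replicate 1 was highest and control replicate 1 lowest for Fga, Fgb, Fgg, Alb, Ttr, Mug1 and Apoa1, while the group differences of Slc34a1 and Lrp2 were -0.08 and -0.09. Alb, Ttr and Mug1 are among the 8 genes most like Fgg. Of 29 tested liver genes 25 had positive differences and 4, not shown, had negative ones. Over 15 proximal tubule genes the median was -0.24 (range -0.51 to 0.15).

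The acute phase list was mixed. Of 21 genes 17 were tested with limma, 0 passed, 13 were positive and 4 negative, and the median was 0.36. At an unadjusted p under 0.05 (limma) 3 were positive and 1 negative, against 4.53% and 6.62% of all features. Among these 3, Hamp (1.87, SE 0.63) was well above background on 2 control arrays. It was tested only through the treated group, in which it was high. With genes well above background on all 6 arrays the list median was 0.26. Hp, haptoglobin, gave 1.48 (SE 0.72), with levels of -2.44, -0.07 and -1.04 in controls and 1.32, 0.15 and -0.59 in treated rats. Its groups overlapped, and its lowest and highest arrays were those of the chains. C3, the central complement component, gave 0.56 (SE 0.17; limma adjusted p = 0.362).

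Acute phase genes with negative values included Apcs, serum amyloid P, with the smallest p of the list. It stood at 5.23 ± 0.04 (SD, n = 3) in controls and 4.17 ± 0.23 (SD, n = 3) in treated rats (log2 difference -1.06, SE 0.13; limma adjusted p = 0.158). Agt, angiotensinogen, gave -1.45 (SE 0.59). In both, 2 of the 17 tested genes, every treated array was lower, as in 12.1% of all features. For Fgg every treated array was higher. A2m, a major acute phase gene of rat liver, gave -0.06 (SE 0.30). The summed level of the 21 genes, to which bright genes such as Apcs add most, was 61.9 to 70.3 in controls and 47.1 to 52.8 in treated rats, so that sum and median differed in sign.

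No tested marker of tubular injury passed. Of 21 listed genes 17 were tested with limma, 8 were positive and 9 negative, and the median was -0.02. At an unadjusted p under 0.05 (limma) 1 was positive and 2 were negative, against 4.53% and 6.62% of all features. Lcn2, neutrophil gelatinase-associated lipocalin, gave 0.17 (SE 0.34), Clu, clusterin, 0.63 (SE 0.37), and Spp1, osteopontin, 0.48 (SE 0.25). Hbegf, an EGF receptor ligand, had the smallest p (0.45, SE 0.11; limma adjusted p = 0.341). Tff3, a mucosal repair peptide, was lower in all treated rats (-1.93, SE 0.51; limma adjusted p = 0.347). Havcr1 (kidney injury molecule 1) exceeded background clearly on 4 arrays and was not tested. It read -5.59, -4.63 and -5.00 in controls and -5.10, -2.69 and -5.53 in treated rats, so that dibromoethane replicate 2 was highest, and not replicate 1 as for the chains.

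Most tested genes of the proximal tubule had negative differences, and none passed. Of 15 such genes 13 were negative, with a median of -0.24. In 10 every treated array was lower, as in 12.1% of all features. The median of the 15 ran from -0.27 to -0.13 over 20 alternative settings. Slc26a1, a sulphate exchanger, gave -0.33 (SE 0.07), and Slc5a12, a lactate carrier, gave -0.51 (SE 0.12). The median was -0.03 for 10 thick ascending limb and distal genes, with -0.72 (SE 0.20) for Cldn16 and 0.33 (SE 0.10) for Scnn1g. Within slide 1 that median was 0.15 and within slide 2 it was 0.02. Dibromoethane replicate 3, on slide 3, had a median of -0.29 against the control mean. For 12 podocyte and endothelial genes the median was -0.05, with 0.60 (SE 0.12) for Esam and -0.27 (SE 0.10) for Plvap. In these 3 lists 0 genes passed. At an unadjusted p under 0.05 (limma) there were 8 negative and 0 positive genes of the proximal tubule. Each of the other lists had 1 of each direction. Over all features 6.62% were lower and 4.53% higher at that p.

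Blood and neighbouring tissue were followed by marker lists as well. The 8 tested blood cell genes had a median of -0.26, with -0.43 (SE 0.10) for Hbb and -0.52 (SE 0.14) for Alas2. Their summed level was 547 to 614 in controls and 378 to 491 in treated rats. Within slide 1 the median of the blood cell genes was -0.04, with 4 of 8 positive, and within slide 2 it was -0.47, with 0 positive. The median was -0.10 for 5 tested genes of perirenal fat and adrenal, among them Adipoq (-0.31, SE 0.13) and Cyp21a1 (0.16, SE 0.17). That median was 0.01 within slide 2 and 0.08 without dibromoethane replicate 2. Again 0 genes passed in either list. At an unadjusted p under 0.05 (limma) there were 3 negative blood cell genes and 0 of fat and adrenal, where 6.62% of all features were lower.

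**Figure D4:**
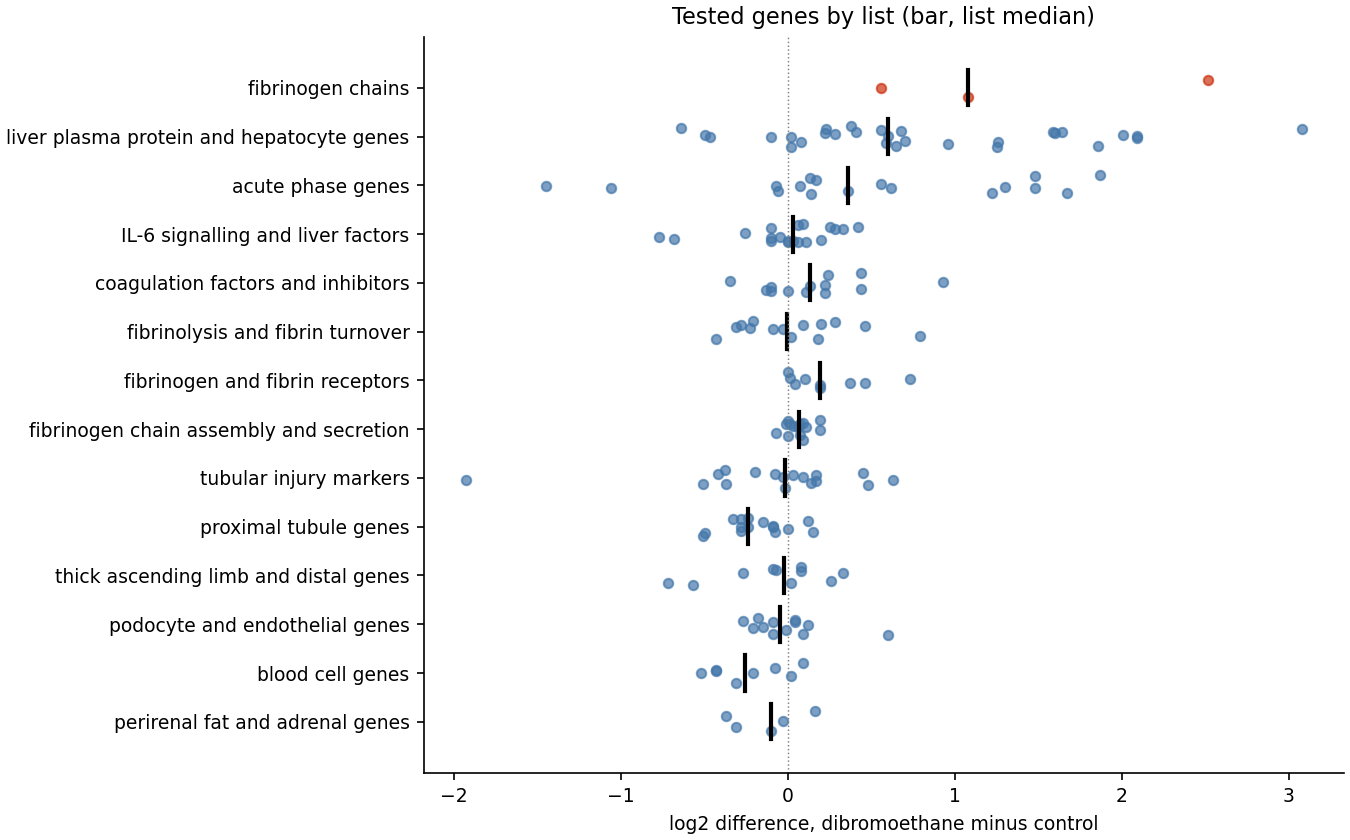
Log2 difference, dibromoethane minus control, of each tested gene in the 13 lists and of the 3 chains (points), with the median of each list as a bar; vertical scatter within a list has no meaning. The chains (0.56, 1.08 and 2.52) lie in the range of the liver list (-0.64 to 3.08) and above all 14 genes of chain assembly and secretion (-0.07 to 0.19).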

How the data were processed

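RNA of 6 renal cortices, each from a separate rat per the labels, was measured on 1-colour Agilent arrays. The authors deposited 1 scanner file per array, made with Agilent Feature Extraction 10.7 per the submitters' processing notes; its values are processed signal intensities, background-subtracted by that software per the file headers. From these, log2 intensity minus the 75th percentile of the array was computed. Accessions were matched to RefSeq genes of GRCr8, which named 28206 of 61453 probes. The brightest probe stood for a gene, and unnamed probes stood for themselves. Features that every array of either group put well above background were tested with limma 3.58.1 in R 4.3.3 (Benjamini-Hochberg, 0.05). The test was run on simulated data first. The number of arrays, 3 a group, limits the precision. Genes named are the members, the 8 most like Fgg, the neighbours, the 2 smallest p-values of each list and a set of textbook genes. Agt, A2m, Il6, Havcr1, Slc34a1, Lrp2, Cyp2c11 and Hamp were named after their values were seen. So were Kng1, Klkb1, Asgr1, Asgr2, Apob, Apoa2, Gys2, Apoh and Cebpa. Some genes that this rule names, and a motif that was searched, are not reported here. The members, the lists and the motifs were chosen with earlier results of these data known. Alternatives were normexp on median spot and background signals, since the planned mean signal was not in the columns used, quantile normalization, median centring, other filters and probe rules, slide, scan day and replicate blocks, array weights, leaving out arrays in turn, and the authors' series table. Processing before the scanner files is not given in the sources used here.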

Additional observations from a re-analysis of the deposited data

How the results depend on the processing

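All 3 chains kept a positive difference and none passed in any alternative run: 0.38 to 0.76 for Fga (adjusted p 0.303 to 0.885), 0.66 to 1.49 for Fgb (0.301 to 0.890) and 1.30 to 3.09 for Fgg (0.272 to 0.832, limma). Fgg could not be tested where a probe had to be well above background on all 6 arrays. Raising its dimmest control to the detection level was chosen after seeing the data. The count of features that passed, 9 as reported, was 5 with median centring, 5 with normexp, 2 without a filter (48892 features tested), 0 with slide as a fixed block, 0 with only slides that held both groups, 2 with scan day and 17 with trend and robust variance estimates; leaving out 1 array gave 1 to 8. The cause of these shifts was not tested. Both slide fits compare the same arrays, keep 2 residual degrees of freedom, and had 3515 features at an unadjusted p under 0.05. The deviations of same-numbered arrays correlated at -0.189, 0.260 and 0.163. Differently numbered arrays were not compared, so these values cannot decide whether the replicate numbers pair the arrays. With the replicate number as a block 0 features passed (limma; 3465 at an unadjusted p under 0.05), and the differences were 0.56, 1.08 and 2.52 (SE 1.08) for Fga, Fgb and Fgg. Signal over background limits what can be said of Fgg in control replicate 1.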

Other observations

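Some genes known from liver, picked after their values were seen, did not share the highest array of the chains. By contrast 25 of the 29 tested liver genes had positive differences. Cyp2c11, a male-specific liver cytochrome P450, stood at -3.87, -0.54 and -0.85 in control replicates 1 to 3 and at -1.85, -0.39 and -3.32 in dibromoethane replicates 1 to 3. Its log2 difference was -0.10 (SE 1.11). The highest level was in dibromoethane replicate 2 and the lowest, as for the chains, in control replicate 1. Kng1, kininogen, stood at -0.84, -0.90 and -2.94 in controls and -1.95, -0.87 and -2.91 in treated rats (log2 difference -0.35, SE 0.74), and Klkb1, plasma prekallikrein, which cuts kininogen, had a difference of 0.00 (SE 0.69). In none of these 3 genes was dibromoethane replicate 1 the highest array.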
